A study of Mus musculus with 4 samples.

Results

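CTCF is a zinc finger protein that binds a long, well conserved DNA motif, blocks contact between enhancers and promoters when it lies between them, and stops the cohesin ring during loop extrusion. Its sites therefore mark many loop anchors and domain borders. They are known to be spread unevenly along chromosomes, with many near genes and few in gene-poor stretches, and many are bound in unrelated cell types. The regions described here are the megabases in which CTCF sites common to splenic B cells and plasmablasts lay closest together.

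The autosomes, chromosomes 1 to 19, were divided into fixed windows of 1 Mb counted from the first base. A window was called dense when it held the midpoints of 30 or more shared B cell peaks, a shared peak being one with 1 bp or more in common with a plasmablast peak. Of the 2418 windows between the first and the last listed peak of each chromosome, 161 were dense. They were 6.66% of the windows and held 24.7% of the shared autosomal sites. The members are all peaks in these windows, 8246 from B cells and 6846 from plasmablasts, or 15092 of the 67467 peaks in both lists. Since the windows were chosen by their number of shared sites, that number, the spacing it sets and the shared percentages are given as description, without a test.

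The peaks come from chromatin immunoprecipitation sequencing with a CTCF antibody, with 1 CTCF library and 1 input library for each cell type, 4 samples in all. All animals were C57BL/6 mice, 6 weeks old, and the number pooled is not given in the sources used here. B cells were the CD43-negative fraction of the spleen, enriched with magnetic beads from mice with no treatment named. Plasmablasts are B cells that still divide after activation and already secrete antibody. They were sorted from spleens by the single surface marker CD138, 3 days after the animals were injected behind the eye with 50 µg lipopolysaccharide (LPS). Peak lists hold no expression, so neither cell type could be checked against its markers. The libraries ran on different sequencing instruments, so cell type and instrument cannot be told apart. The B cell peaks were 305 bp wide, and the plasmablast peaks were 179 bp wide except for 1. Since each cell type had a single CTCF library, spread between replicates is not known and no p-value was computed. The files give no depth, and a site without a listed peak may still be bound in those cells. Intervals on percentages are exact (Clopper-Pearson) 95% binomial intervals and cover counting error only.

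The dense windows formed the far end of a continuous distribution. A typical dense window held 35 shared sites (quartiles 32 and 41), and 50 of the 161 held at least 40. Away from them, in windows that were neither dense nor beside a dense one, the median was 5. Close to the threshold the ranges of strength overlapped almost wholly, while the middle of the range was higher just inside. In the 18 windows with exactly 30 shared sites the median score of shared B cell peaks ran from 66.2 to 211.2, with a middle value of 136.1. In the 14 windows with 29 it ran from 78.7 to 203.8, with a middle value of 111.2. The plasmablast medians ran from 15.2 to 45.7 (middle value 25.4) in the windows with 30 shared sites. In those with 29 they ran from 15.5 to 46.8 (20.65). The longest stretch without a shared site, with the ends of the window counted as borders, had a middle value of 184.9 kb just inside. Just outside it was 123.0 kb.

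**Figure D1:**
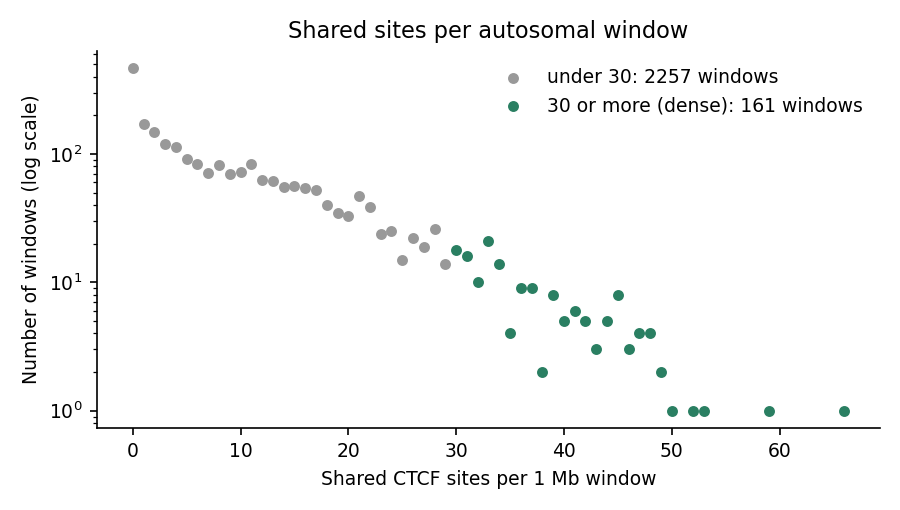
Each point gives the number of 1 Mb autosomal windows (y axis, log scale) with a given number of shared CTCF sites (x axis). Counts fall with some scatter, the 161 dense windows in green start at 30 shared sites, and the 2 windows farthest to the right, with 59 and 66, stand apart from the rest.

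The 2 windows richest in shared sites adjoined each other on chromosome 10 (mm9 coordinates, 1-based). The window from 80000001 to 81000000 held 66 shared sites beside 17 peaks listed in B cells only and 11 listed in plasmablasts only. Its neighbour from 79000001 to 80000000 held 59 shared sites, with 13 and 14 unshared peaks of B cells and plasmablasts. Both were strong as well as crowded. In the first, 31 of the 66 shared sites lay in the highest score decile of the B cell list, more than in any other dense window. In its neighbour 22 of 59 did, where 15.1% of all shared autosomal sites lie in that decile. The strongest B cell peak of the whole 79 Mb window, at 79627803 to 79628107 with a score of 439.9, overlapped a plasmablast peak at percentile 99.52 of its list. The unshared peaks of that window were weaker than this site in either list. The highest scored 56.5 in B cells, well below the median of 188.9 for the shared sites of the window. In plasmablasts the highest scored 30.4, close to the median of 32.8 for the shared sites.

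Below these came windows of 53 to 48 shared sites. The window on chromosome 7 from 52000001 to 53000000 had 53 shared sites and 16 and 11 unshared peaks of B cells and plasmablasts. On chromosome 17, the window from 34000001 to 35000000 held 52 shared sites, and the next one along, from 35000001 to 36000000, held 48. Chromosome 4 had 50 from 134000001 to 135000000. On chromosome 11 there were 49 from 69000001 to 70000000. The remaining windows of the first 10 were on chromosome 7 from 31000001 (49 shared sites), on chromosome 5 from 149000001 (48) and on chromosome 7 from 29000001 (48). The chromosome 4 window from 140000001 also held 48 and came after these by its smaller number of peaks in both lists. The 10 richest windows were not all rich in strong sites. The chromosome 5 window had 3 of its 48 shared sites in the highest B cell decile, and its median shared B cell score was 86.15, below the 105.6 of all shared autosomal sites.

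Some of the megabases hold well known loci. These were placed by general knowledge of the mouse map and not by an annotation used here, so they say only which megabase is meant. The chromosome 17 window at 34 Mb covers much of the class II and class III parts of the major histocompatibility complex, which encode antigen-presenting and complement proteins. Its shared sites ranked higher in plasmablasts than in B cells, with a median rank at the 62.7th percentile of all shared autosomal sites against the 51.8th. Wider differences in either direction were seen among the 15 windows looked up. The plasmablast rank minus the B cell rank ran from -24.7 for alpha globin to 20.6 for Ikzf1. The chromosome 11 window at 69 Mb holds Trp53, the p53 tumour suppressor gene. Windows with the Hoxb and Hoxc clusters of developmental transcription factor genes were also dense, with 45 shared sites at 96 Mb on chromosome 11 and 36 in the chromosome 15 window that starts at 102000001. The windows of the Hoxa and Hoxd clusters were not dense, with 16 and 12. The window with the alpha globin genes, on chromosome 11 at 32 Mb, missed the threshold by 1 site, and that of Notch1, on chromosome 2 at 26 Mb, by 2. The windows of Ikzf1 (10 shared sites), Pax5 (19), Myc (4) and Gnas (19) were not dense either. Of the 15 such windows looked up, 4 were dense, where 6.66% of all autosomal windows were. The loci were picked as well known ones, so the 2 shares are not a like comparison. The 3 windows of the large histone gene cluster on chromosome 13 held 4 to 13 shared sites.

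Dense windows were spread unevenly over the chromosomes. Chromosome 11 had 24, which were 20.2% of the windows spanned there and held 43.6% of its shared sites. Chromosome 5 had 17 and chromosome 7 had 16. In proportion to its length chromosome 19 came next after chromosome 11, with 8 of 59 windows, followed by chromosome 17 with 12 of 93. Chromosome 13 had none among 118 windows, its richest holding 27. Chromosome 18 had 1, and chromosomes 12, 14 and 16 had 2 each.

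Many dense windows touched another. Taken in rows of adjoining windows, the 161 formed 95 blocks, and 106 of the windows were in the 40 blocks of at least 2. The longest block was on chromosome 11 from 114 to 121 Mb, with 261 shared sites in 7 windows. Its unshared peaks numbered 133 from B cells and 31 from plasmablasts. The next was on chromosome 17 from 24 to 30 Mb, with 224 shared sites in 6 windows, and 103 unshared peaks from B cells and 26 from plasmablasts. Chromosome 11 had a further block of 5 windows from 94 to 99 Mb with 205 shared sites. Blocks of 4 lay on chromosome 4 from 132 to 136 Mb, on chromosome 8 from 122 to 126 Mb and on chromosome 19 from 3 to 7 Mb. The 171 windows beside a dense one that were not dense themselves held a median of 19 shared sites, and 32 of them had fewer than 10.

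Here every dense window is placed, each block by its start and end in Mb. On chromosome 1 they ran from 74 to 75, 88 to 89, 133 to 135, 136 to 138 and 182 to 183, with a further window from 173000001 to 174000000. Those of chromosome 2 fell into a proximal group (25 to 26, 28 to 30 and 31 to 33) and a distal group (152 to 153, 155 to 156, 158 to 159, 164 to 166 and 167 to 169). Chromosome 3 had 87 to 90 and 96 to 97. Chromosome 4 had a single proximal window at 43 to 44, and the rest lay distally at 116 to 117, 129 to 130, 132 to 136, 137 to 139, 140 to 141, 149 to 150, 151 to 152 and 154 to 155. On chromosome 5 all but the window at 36 to 37 lay in the distal part, at 114 to 116, 121 to 124, 125 to 126, 130 to 131, 135 to 138, 140 to 142, 144 to 145, 147 to 148 and 149 to 151. The 4 of chromosome 6 stood alone at 83 to 84, 86 to 87, 124 to 125 and 128 to 129.

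Chromosome 7 had dense windows at both ends and in between: 4 to 5, 17 to 18, 19 to 21, 25 to 26, 28 to 30, 31 to 32, 51 to 53, 87 to 88, 108 to 109, 133 to 135 and 148 to 150. Chromosome 8 had 26 to 27, 73 to 75, 86 to 88, 97 to 98, 108 to 109 and 122 to 126. On chromosome 9 they were 21 to 22, 44 to 45, 57 to 58, 107 to 108, 110 to 111 and 119 to 122, and on chromosome 10 they were 60 to 61, 77 to 78, 79 to 81 and 126 to 128. All of chromosome 11's lay beyond its proximal 68 Mb, at 68 to 71, 72 to 73, 77 to 79, 88 to 89, 94 to 99, 100 to 103, 106 to 108 and 114 to 121. Chromosome 12 had 113 to 115 and chromosome 14 had 55 to 57. Chromosome 15 had 74 to 75, 76 to 77, 78 to 80, 81 to 82, 84 to 86 and 97 to 100, with a further window from 102000001 to 103000000. The remainder were 10 to 11 and 17 to 18 on chromosome 16, 24 to 30, 31 to 32, 34 to 36, 45 to 46, 47 to 48 and 56 to 57 on chromosome 17, 38 to 39 on chromosome 18, and 3 to 7, 10 to 11 and 45 to 48 on chromosome 19.

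Shared sites in dense windows lay a median of 16.2 kb apart (quartiles 7.01 and 32.6 kb), measured between the midpoints of neighbouring shared B cell peaks in the same window. In windows with 20 to 29 shared sites the median distance was 23.4 kb, and in those with 1 to 9 it was 59.5 kb. The choice of windows sets this order. What it does not set is how the sites were arranged inside a window, and there the distances varied widely. They are pooled here over windows with 30 to 66 shared sites, and no comparison with random placement was made. Distances had a standard deviation of 29.9 kb around a mean of 25.7 kb, a coefficient of variation of 1.16, the same to that precision as in windows with 20 to 29 sites and below the 1.27 of windows with 1 to 9. Neighbours within 10 kb made up 34.5% of the distances, and 336 of the 5810 distances were 2 kb or less. At the other end, 176 distances exceeded 100 kb.

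**Figure D2:**
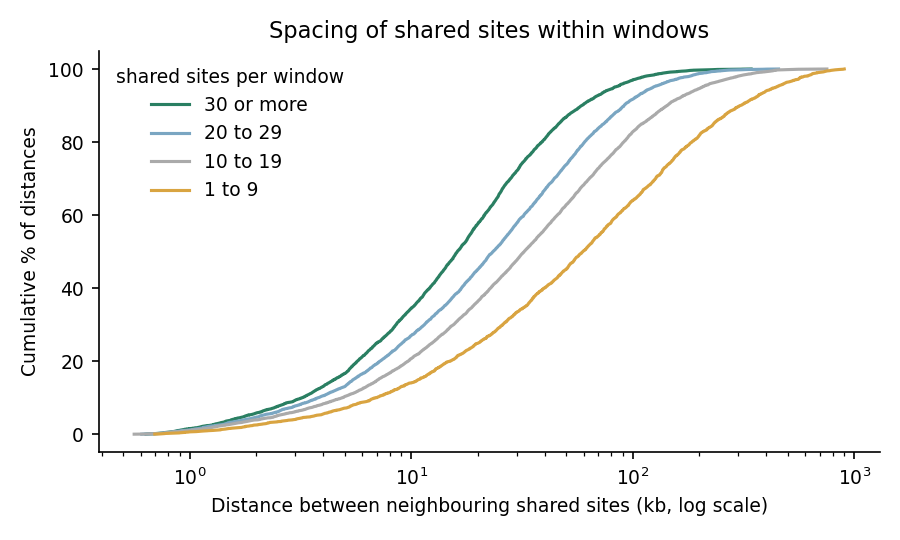
Cumulative percentage of the distances between neighbouring shared sites (x axis in kb, log scale) in windows with 30 or more, 20 to 29, 10 to 19 and 1 to 9 shared sites. The dense windows lie farthest left, with a median of 16.2 kb against 59.5 kb in the sparsest windows, and the curves draw together below 1 kb.

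Within the dense megabases, counts also varied between smaller intervals, again without a comparison to random placement. Of their 1610 intervals of 100 kb, 105 held no shared site and 91 held 8 or more, around a mean of 3.71 with a standard deviation of 2.27. In 91 of the 161 windows each interval of 100 kb held at least 1 shared site. The tightest stretch was on chromosome 7, where 15 shared sites had their midpoints between 28029340 and 28127774, while the whole window from 28 to 29 Mb held 44.

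The longest empty stretches showed that a window can be dense and still have a wide hole in it. In the chromosome 7 window from 20 to 21 Mb, 33 shared sites left a stretch of 458.0 kb without a shared site. The chromosome 1 window from 88 to 89 Mb had an empty stretch of 342.4 kb, and the chromosome 7 window from 51 to 52 Mb had one of 334.2 kb. The chromosome 10 window at 79 Mb was the most evenly filled by this measure, its longest empty stretch being 54.1 kb. The shortest median distances were 9.30 kb on chromosome 10 from 126 to 127 Mb, 9.59 kb on chromosome 7 from 19 to 20 Mb and 9.82 kb on chromosome 10 from 80 to 81 Mb.

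Shared sites of dense windows were on the whole strong ones. The score is the authors' own value for each peak and its unit is not stated, so it is read only within a list. The median B cell score of shared sites was 135.2 in dense windows (quartiles 70.4 and 208.4) and 97.2 in the other autosomal windows, 1.39 times as high. In plasmablasts the medians were 27.1 (quartiles 13 and 47.3) and 22.3, 1.22 times as high. Strength fell in steps with the number of shared sites per window. The B cell median was 115.8 in windows with 20 to 29 shared sites, 95.4 with 10 to 19 and 76.9 with 1 to 9. The plasmablast medians of these classes were 24, 22.4 and 19.9. The median was above that of all shared autosomal sites in B cells in 131 of the 161 windows, in plasmablasts in 120 and in both in 106. In 16 windows it was not above in either. In the highest decile of the list lay 22.2% of the shared B cell sites of dense windows (21.2 to 23.3%), where 15.1% of all shared autosomal sites do. For plasmablasts this was 16.9% (16.0 to 17.9%), where 12.4% of all shared autosomal sites do. Strength is tied to sharing, and hence to the choice of windows, so these differences are not independent of the rule.

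Windows at the extremes of strength ranged from the fewest to the most shared sites. The highest median B cell score of shared sites, 211.2, was on chromosome 19 from 6 to 7 Mb, in a window that just passed with 30 shared sites. Next were chromosome 1 from 137 to 138 Mb (204.7) and chromosome 10 from 80 to 81 Mb (201). In plasmablasts the order was led by chromosome 9 from 107 to 108 Mb (46.05), chromosome 3 from 87 to 88 Mb (45.7) and again chromosome 10 from 80 to 81 Mb (42.35). The weakest shared sites in B cells were on chromosome 8 from 26 to 27 Mb, with a median of 66.2, chromosome 4 from 116 to 117 Mb (82.4) and chromosome 1 from 136 to 137 Mb (83.4). On chromosome 1 a window among the strongest in B cells thus adjoined a window among the weakest. In plasmablasts the lowest medians were 14.6 on chromosome 2 from 29 to 30 Mb, 15.15 on chromosome 7 from 29 to 30 Mb and 15.2 on chromosome 8 from 26 to 27 Mb. The chromosome 8 window was at the weak end in both lists.

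**Figure D3:**
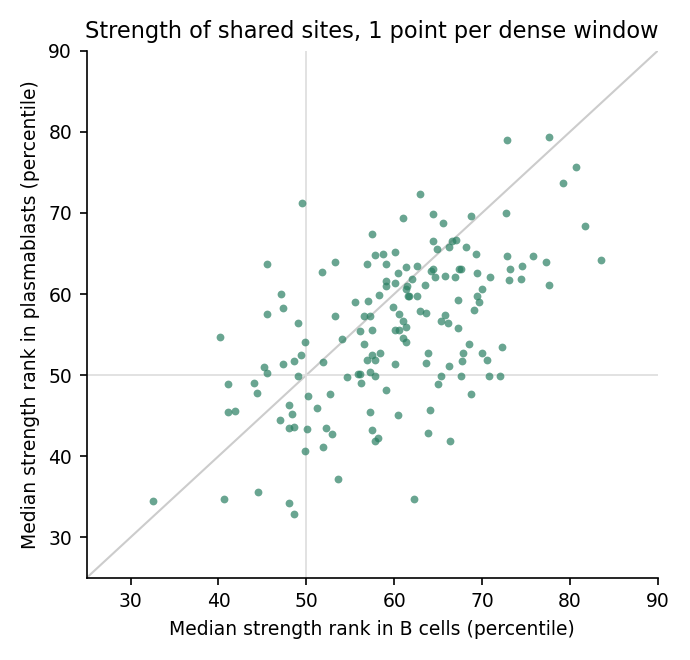
Each point is 1 dense window, placed by the median strength rank of its shared sites in B cells (x axis) and in plasmablasts (y axis), as a percentile among all shared autosomal sites of the same list. Most points lie above 50 on both axes, and 111 of 161 lie under the diagonal, where the plasmablast rank is the lower.

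Ranks allow the lists to be set side by side without their units. Among all shared autosomal sites the median dense window ranked at the 60.6th percentile in B cells and the 56.4th in plasmablasts. The plasmablast rank was the lower in 111 windows and the higher in 50. Inside single windows the order of the sites was largely kept, with a median Spearman rank correlation between the lists of 0.76 over 30 to 66 sites. The lowest was 0.45, on chromosome 1 from 74 to 75 Mb, and the highest 0.88, on chromosome 17 from 47 to 48 Mb, both named after their values were seen. Over all sites of dense windows the correlation was 0.76. It was 0.73 over those of windows with 20 to 29 shared sites, 0.67 with 10 to 19 and 0.60 with 1 to 9. Sites of 1 window share their libraries and are not replicates.

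Closely spaced shared sites were stronger than spread ones, within dense windows too. Shared sites with another shared site within 5 kb, 1795 of 5971, had a median B cell score of 154.7 (order statistic 95% interval 147.3 to 162.1). For the 147 sites with none within 50 kb it was 86.1 (77.8 to 99.1). The plasmablast medians of the same sites were 31.7 and 19. Between 5 and 50 kb the B cell medians changed little, from 130.6 to 126. In the other autosomal windows the medians in B cells fell in steps from 121.3 within 5 kb to 71.3 beyond 50 kb. At each distance the dense windows had the higher median in both lists, with intervals apart throughout in B cells. In plasmablasts the intervals overlapped at 5 to 10 kb, at 10 to 20 kb and beyond 50 kb. Beyond 50 kb the plasmablast medians were 19 (16.9 to 23.7) in dense windows and 18.3 (17.4 to 19) in the others.

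Summed over the dense windows, unshared peaks were fewer than shared sites, and most were from B cells. B cells contributed 2275 unshared peaks and plasmablasts 875, with a median of 14 and 5 per window. B cell only peaks made up 72.2% of the unshared peaks (70.6 to 73.8%), where the value over all autosomes was 65.5%. The share was 73.2% in windows with 20 to 29 shared sites and 54.8% in those with 1 to 9, so it was no higher in the dense windows than in the class below them. In 150 of the 161 windows B cell only peaks were the more numerous, in 5 the numbers were equal, and in 6 plasmablast only peaks were the more numerous.

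Single windows ranged widely. The chromosome 19 window from 46 to 47 Mb held 12 B cell only peaks and no plasmablast only peak, the only dense window without one. Chromosome 17 from 25 to 26 Mb held 22 and 1, and chromosome 2 from 32 to 33 Mb held 19 and 1. At the other end, chromosome 1 from 88 to 89 Mb held 11 unshared peaks from B cells and 13 from plasmablasts. Chromosome 7 from 19 to 20 Mb and chromosome 2 from 28 to 29 Mb each held 6 and 7. Proximal chromosome 2 therefore had windows at both extremes within 5 Mb. The numbers of B cell only and plasmablast only peaks hardly moved together over the 161 windows, with a Spearman rank correlation of 0.04, given as a description.

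**Figure D4:**
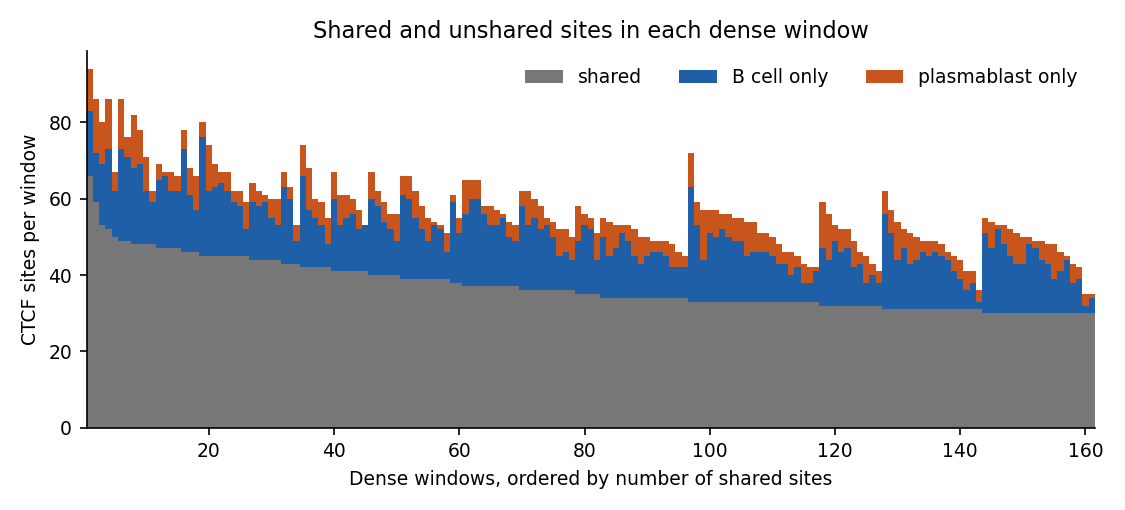
Stacked bars give the shared (grey), B cell only (blue) and plasmablast only (orange) sites of each of the 161 dense windows, ordered from 66 to 30 shared sites and, at equal numbers, by all peaks of both lists. The grey part falls by definition, while the blue part varies from 2 to 31 and the orange part from 0 to 14 along the whole order.

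The listed overlap was 72.4% of the B cell peaks in dense windows (71.4 to 73.4%), where it was 67.8% over all autosomes. Of the plasmablast peaks 87.2% were shared (86.4 to 88.0%), where it was 80% over all autosomes. Windows with 20 to 29 shared sites had 68.2% of B cell peaks and 85.4% of plasmablast peaks shared. Sharing rises with strength, and dense windows hold more strong peaks, so the percentages were also taken by decile of each list's own score. For B cell peaks the percentage in dense windows was lower than in the other windows in 8 of 10 deciles and higher in 2. The intervals were apart in only 1 of the 10, the second decile. There 23.8% were shared (20.7 to 27.1%), against 28.9% in the other windows (27.3 to 30.5%). For plasmablast peaks the percentage was higher in all 10 deciles, with intervals apart in 9. In the lowest plasmablast decile 65.1% were shared (60.9 to 69.1%), against 54.9% (52.9 to 56.9%). The windows were picked by their number of shared sites, so these percentages are a description and test nothing.

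**Figure D5:**
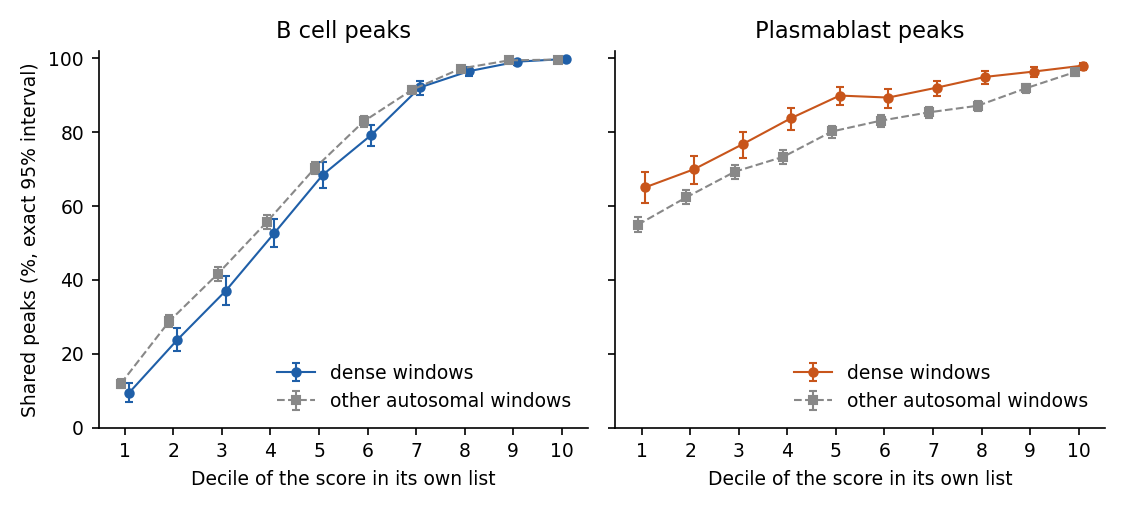
Percentage of peaks shared (y axis, with exact 95% binomial intervals) by decile of the score within each list (x axis), for B cell peaks on the left and plasmablast peaks on the right. The plasmablast curve of dense windows lies above that of the other autosomal windows in all 10 deciles, whereas the B cell curve of dense windows lies at or below it in 8. Intervals are apart in 9 plasmablast deciles and in 1 B cell decile.

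Unshared peaks in dense windows were weak in their own list. The median B cell only peak scored 25.9, at percentile 22.4 of its list, and the median plasmablast only peak scored 9.8, at percentile 25.5. Above the median score of their list lay 276 of the 2275 B cell only peaks, or 12.1% (10.8 to 13.5%), where 9.51% of unshared peaks do over all autosomes. Of the 875 plasmablast only peaks 208 did, or 23.8% (20.99 to 26.7%), where the value over all autosomes was 25%. In the highest decile of their list were 3 of the B cell only peaks, where 0.104% of unshared autosomal peaks are, and 21 of the plasmablast only peaks, where 1.64% are. All 3 of the former and 9 of the latter had a peak of the other list with its midpoint within 500 bp.

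Among the dense windows, the strongest unshared peaks of both lists adjoined each other on chromosome 12, in the window from 114 to 115 Mb, a chromosome known for the immunoglobulin heavy chain genes. They scored 354.7 in B cells and 91 in plasmablasts, with midpoints 250 bp apart, in a window that had 9 unshared peaks of each list. A second such couple was on chromosome 6, with a B cell peak at 83725728 to 83726032 (223.2) and a plasmablast peak at 83726111 to 83726289 (80.5) whose midpoints were 320 bp apart. Not all strong unshared peaks had such a neighbour: 12 of the 21 plasmablast only peaks in the highest decile had no B cell midpoint within 500 bp, and the B cell only peak on chromosome 17 at 25173166 to 25173470 (198.2) lay 19307 bp from the nearest plasmablast midpoint. The peaks of this paragraph were picked, after their values were seen, from the 5 strongest unshared peaks of each list that lie in dense windows.

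In the 3 windows richest in shared sites the strongest B cell only peaks lay at percentiles 47.3 to 71.0 of their list. The strongest plasmablast only peaks ranked higher in theirs, at percentiles 66.5 to 85.7. On chromosome 10 the strongest B cell only peak of the 80 Mb window scored 58.3, below the median of its list, and lay 41484 bp from the nearest plasmablast midpoint. The strongest plasmablast only peak of that window scored 46.8, at the 83.8th percentile, and lay 529 bp from a B cell midpoint. In the chromosome 7 window at 52 Mb the strongest B cell only peak, at 52338045 to 52338349, scored 126, at the 71.0th percentile, and the strongest plasmablast only peak, at 52689672 to 52689850, scored 49.1, at the 85.7th percentile and 425 bp from a B cell midpoint. The strongest shared sites of these windows were at 80755373 to 80755677 on chromosome 10 (367.7 in B cells and 45.2 in plasmablasts) and at 52115968 to 52116272 on chromosome 7 (295.5 and 34.7). By plasmablast score they were at 80965471 to 80965649 (96.5, with 251 in B cells), 79388116 to 79388294 (157.7, with 386.2) and 52391783 to 52391961 (79.2, with 271.4).

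In dense windows plasmablast only peaks sat closer to shared sites than B cell only peaks did. The median distance from an unshared peak to the nearest shared site of its own list was 4.62 kb for plasmablast only peaks (quartiles 1.85 and 13.2 kb) and 10.4 kb for B cell only peaks (quartiles 6.01 and 18.9 kb). Within 2 kb of such a site lay 233 of the 875 plasmablast only peaks, or 26.6% (23.7 to 29.7%), and 134 of the 2275 B cell only peaks, or 5.89% (4.96 to 6.94%). In windows with 10 to 19 shared sites the median distances were nearer each other, 16.8 kb for plasmablast only and 18.98 kb for B cell only peaks. In windows with 1 to 9 the order turned, with 42.7 and 38.9 kb. The share within 2 kb was 17.98% of plasmablast only and 5.81% of B cell only peaks in windows with 20 to 29 shared sites, and 6.34% and 3.64% in those with 1 to 9. More shared sites per window, which the choice of windows sets, bring any peak closer to one, so only the lists within a class are set against each other here. Of the plasmablast only peaks with scores over their list's median, 40.9% lay that close in dense windows (34.1 to 47.9%), and for such B cell only peaks the value was 13.4% (9.62 to 18.002%). Of the 875 plasmablast only peaks, 74 had a B cell midpoint within 500 bp (8.46%, 6.70 to 10.5%). Of the 2275 B cell only peaks, 35 had a plasmablast midpoint that close (1.54%, 1.07 to 2.13%). These shares were 6.18% and 1.44% in windows with 20 to 29 shared sites, and 8.14% and 3.16% in those with 10 to 19. Neither dense value was therefore particular to dense windows, although all other autosomal windows together had 6.26% and 2.71%. Narrower plasmablast peaks can be listed closer together, and the part of peak width in the difference between the lists was not tested.

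Where an unshared peak lay within 2 kb of a shared site, the strength of that site went with the list of the unshared peak. The 237 shared sites of dense windows with a plasmablast only peak within 2 kb had a median B cell score of 166.7 (150 to 190.8) and a median plasmablast score of 32.4 (28.1 to 37). The 134 with a B cell only peak within 2 kb had medians of 79.2 (67.6 to 95.4) and 16 (13.4 to 21.7). Sites with neither, 5607 in number, lay between, at 135.2 and 27.1, and the few sites with both count in each of the first sets. This covers only the 26.6% of plasmablast only and 5.89% of B cell only peaks that lay so close to a shared site. The intervals are order statistic intervals over sites and cover no spread between libraries.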

How the data were processed

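The deposited files analysed were 2 peak lists, 1 per CTCF library, and input libraries were not analysed here. Bowtie, HOMER and mm9 are named in the submitters' processing notes, but the sources used here give no versions, thresholds or use of the input. The score in column 5 is the authors' own value per peak, of unstated unit and normalization, and library depth is unknown. The files count from 0, as BED does, and 1 was added to each start. Overlaps were computed in Python 3.11.15 (numpy 2.4.6, pandas 2.3.3, scipy 1.17.1, figures in matplotlib 3.10.9), agreed in number with bedtools 2.31.1 (24702 in either list), and the window assignment was tested on simulated data. A strength rank is a percentile among the 24186 shared autosomal sites. Windows named are the 10 with most shared sites (ties by peaks of both lists) and the 3 at each extreme of unshared composition (at least 10 unshared peaks), score, empty stretch and spacing. Members and lists were chosen with earlier results of these data known. Alternatives covered the overlap rule, a stricter list, the window start and the threshold. Genes, promoters, motifs and sequences were not used, since the tables at hand are on GRCm38.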

Additional observations from a re-analysis of the deposited data

How the results depend on the processing

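Of 56 alternative values for 8 results, 41 stayed within the interval of the value above or, for counts, within 1.5 times, 15 moved and none reversed. Reversal was defined only for the B cell only share (crossing 50%) and the 2 ratios of medians (crossing 1). The other results could not reverse. With 50% reciprocal overlap, plasmablast sharing was 85.7% and the B cell only share of unshared peaks 70.5%, and 148 of the 161 windows remained dense. With midpoints within 100 bp, plasmablast sharing was 86.1%. Without the lowest score quartile of each list, 75 windows with 6506 peaks were dense, B cell sharing was 74.6%, plasmablast sharing 90.3%, the B cell only share 76.0% and the ratio of B cell medians 1.26. A threshold of 25 gave 257 windows and a spacing of 17.7 kb. A threshold of 40 gave 50 windows with 5615 peaks, B cell sharing of 74.4% and a spacing of 14.1 kb. Counting by plasmablast midpoints kept all 161 windows. This alternative could hardly differ, since each of the 161 held equal numbers of shared peaks of the 2 lists. Its 8 values, counted among the 41, therefore say little about stability. Shifting windows by 0.5 Mb gave 165. No paired analysis was possible because each cell type had 1 CTCF library, and for the same reason no library could be left out.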

Other observations

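The windows in which the lists ranked shared sites most differently were picked after their values were seen. Shared sites ranked lowest in plasmablasts relative to B cells on proximal chromosome 2 and distal chromosome 7. From 25 to 26 Mb on chromosome 2 the median rank among shared autosomal sites was at the 62.3rd percentile in B cells and the 34.7th in plasmablasts, over 39 sites, and from 31 to 32 Mb it was at the 66.4th and the 41.9th, over 37 sites. From 148 to 149 Mb on chromosome 7 the ranks were 72.0 and 49.9, over 33 sites. The opposite order was widest on chromosome 1 from 173000001 to 174000000, with ranks of 49.5 in B cells and 71.2 in plasmablasts over 32 sites, and on chromosome 15 from 99 to 100 Mb, with 45.6 and 63.7 over 33 sites. These 2 chromosome 2 windows also held few plasmablast only peaks, 1 and 2, beside 14 and 19 B cell only peaks, whereas the chromosome 1 window held 12 of each. The chromosome 7 and chromosome 15 windows did not differ in this way, although their ranks differed in opposite directions. They held 5 plasmablast only peaks each, beside 12 and 10 B cell only peaks. No replicate library shows how far such ranks vary.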
